A study of Mus musculus with 24 samples.

Results

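The 9 genes described here encode proteins of the neuronal cytoskeleton and of the axon. They were chosen by symbol: the neuronal intermediate filament genes Nefl, Nefm, Nefh and Ina, the microtubule protein genes Map2, Mapt and Stmn2, the growth cone gene Gap43, and Uchl1, which encodes a soluble neuronal ubiquitin hydrolase. All 9 were listed in each of the 4 deposited expression tables, out of 14769 genes listed in at least 1 of them.

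The study compared cortex RNA between wild-type (WT) mice and knockout (KO) mice that lack ciRS-7, a circular RNA with binding sites for the microRNA miR-7 that is listed under the symbol Cdr1as. All animals were males, 3 to 4 months old, and underwent tMCAo, a surgical stroke model in which a filament closes the middle cerebral artery, here for 1 h, and RNA was taken after 1 day of reperfusion. The labels give the strain C57BL/6N-Cdr1asem1Nikr for every animal, WT animals included, and divide the cortex libraries into CL and PI, 2 abbreviations that are used here as they stand. Total RNA depleted of ribosomal RNA was sequenced in 24 libraries: each of 6 WT and 6 KO animals gave 1 CL and 1 PI library. No animal without surgery was analysed here, so CL and PI were both taken from operated animals.

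Neurofilaments are heteropolymers of a light, a medium and a heavy subunit (Nefl, Nefm and Nefh) with alpha-internexin (Ina). They fill the axon and set its calibre, and the light subunit is released into cerebrospinal fluid and blood when axons are damaged. Tau, the product of Mapt, binds microtubules mainly in axons, and Map2 binds them mainly in dendrites and cell bodies. Stathmin-2 (Stmn2) regulates microtubule turnover in growing axons, and GAP-43 is a membrane protein of growth cones whose gene is known to be induced in regenerating peripheral neurons.

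Because ciRS-7 has binding sites for miR-7, the mature miR-7 sequences were compared with the transcripts of the 9 genes. Whether ciRS-7 acts on any of these genes, through miR-7 or otherwise, was not tested by this comparison. The sequences are from RefSeq, and capitals mark the seed, bases 2 to 8, which both miRNAs share.
mmu-miR-7a-5p: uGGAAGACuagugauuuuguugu
mmu-miR-7b-5p: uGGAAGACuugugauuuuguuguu
GTCTTCC is the reverse complement of the seed, and TCTTCCA is the reverse complement of bases 2 to 7 followed by A. These letters were searched on the sense strand of annotated 3' UTRs. The 2 motifs share 6 letters and can overlap at 1 site. A match was present in 1 of the 9 genes, Nefm, against 23.97% of 20981 protein-coding genes. The Nefm match, in capitals below, lies at chromosome 14, from 68084418 to 68084412 on the minus strand of GRCm38, in the last exon of the longer annotated transcript.
Nefm site: tcgttagtggcGTCTTCCgctgccagccgc
The other 8 genes have no such letters in these UTRs. A match is a description of sequence and was not tested for binding.

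Effective depth, read from the smallest steps between low values of each table, ran from 3.75 to 10.5 M reads (megareads) per library. The median was 6.91 M reads, and 1 CL KO library was the shallowest. These depths include the scaling of each table, and that library had 3.75 M reads in its table with PI KO and 3.84 in its table with CL WT. The recoverable values of the 9 genes ran from 43.6 to 2375 CPM (the gene's reads for each 1 M reads of the library), far above the 3 reads (at most 0.80 CPM) set as the limit of detection. Cdr1as ran from 2594 to 3809 CPM in WT libraries and no recoverable value in KO libraries exceeded 0.169 CPM. Of the neuron markers, 14 of 14 were listed, which cannot tell cortex from other brain regions. All values are log2 CPM, in which a difference of 1 is a doubling. In the deposited tables the end values of each gene in each group had been pulled in toward the others, so the values given below run from the second lowest to the second highest of 6 libraries, group means, with their standard errors (SE), are over the 4 inner libraries, and "overlap" refers to those values. The outermost library at each end is known only by the bound it passes, so a number of animals with PI lower or higher than CL is given as the least that these bounds allow. In tissue RNA, fewer cells of a type and less RNA per cell cannot be told apart.

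Per length of transcript, in CPM per kilobase of annotated exon, Nefl and Map2 were the most abundant of the 9 genes in CL cortex and Nefh the least. In CL WT the order was Nefl at 151, Map2 at 141, Uchl1 at 105, Ina at 47.0, Stmn2 at 43.7, Gap43 at 31.8, Nefm at 26.6, Mapt at 26.5 and Nefh at 17.8 CPM per kilobase. Only Nefm and Mapt were neighbours with overlapping values there. In PI WT the order at the top differed: Map2 at 133, Uchl1 at 125 and Nefl at 113 CPM per kilobase, with overlapping values between neighbours. The same 3 genes held the first 3 places in PI KO, at 133, 122 and 117, and in CL KO Nefl stood at 145, Map2 at 135 and Uchl1 at 110 CPM per kilobase. The order rests on the exon lengths of GENCODE M21 and on how reads were assigned to overlapping genes.

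**Figure D1:**
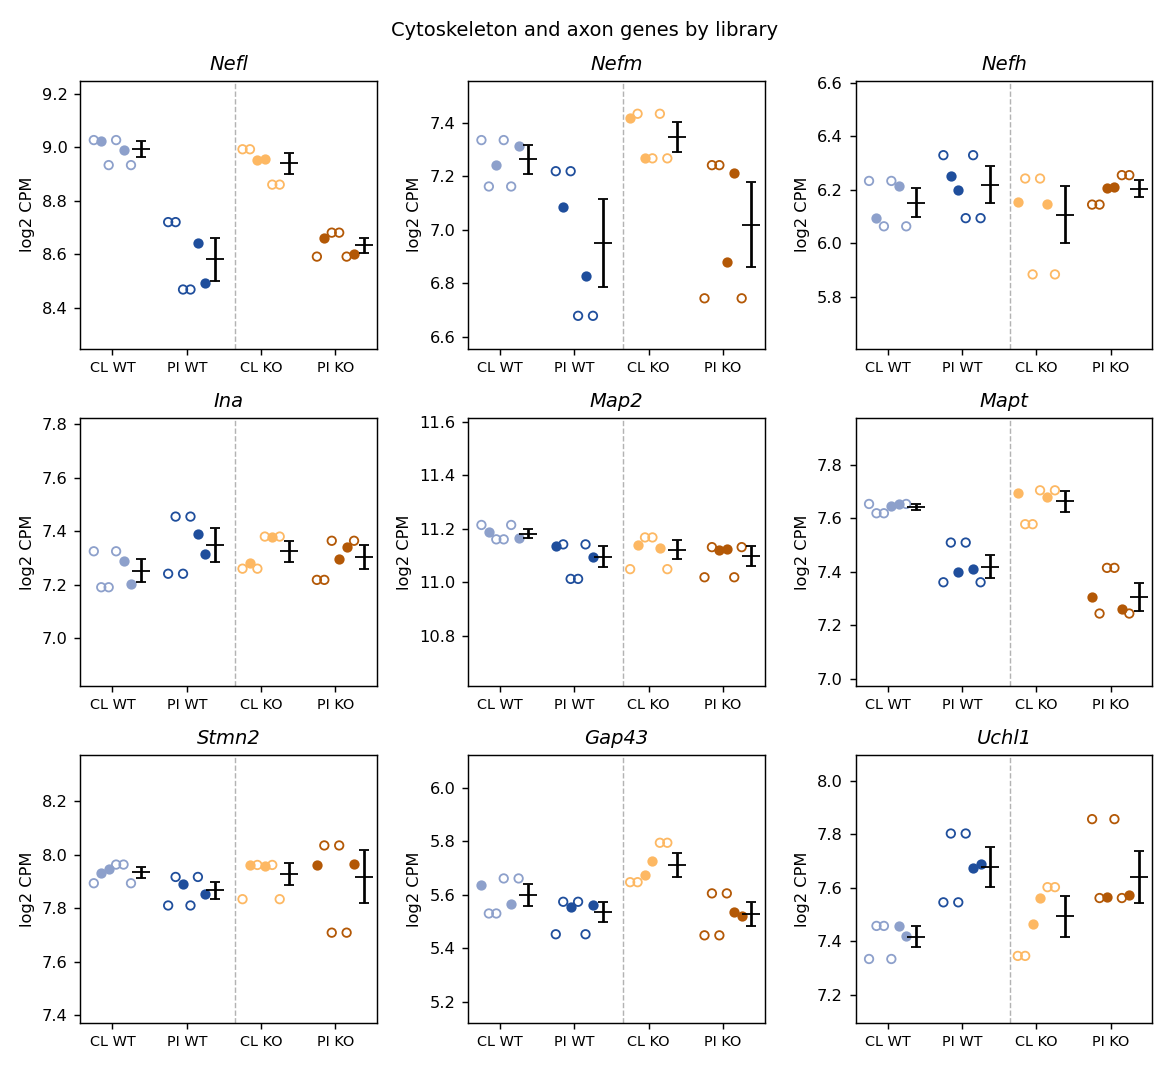
Level of each gene in each library (vertical axis, log2 CPM, 1 log2 unit in every panel), by group, with CL and PI of WT left of the dashed line and of KO right of it, from 2 tables scaled separately. Open points are the 2 libraries at each end of a group, which are known only to the value of the inner one of the pair, filled points are the other 2, and the bar is the mean of the 4 inner libraries ± SE. Nefl and Mapt are lower in PI than in CL in both genotypes with no overlap, and Map2 and Stmn2 lie close together.

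The comparison of PI with CL cortex within a genotype asks how the cortex marked PI differed from that marked CL 1 day after stroke surgery. In WT, Nefl and Mapt fell and Uchl1 rose, and in KO, Nefl and Mapt fell. Thus 3 of the 9 genes were called in WT (1 higher, 2 lower), where 10.8% of 14489 genes were called, 5.29% higher and 5.48% lower. In KO 2 of 9 were called, both lower, where 10.1% of 14338 genes were called, 5.14% higher and 4.97% lower. Called means an adjusted p under 0.05 in the moderated trimmed-mean test (limma's variance moderation, Benjamini-Hochberg adjustment over the table), two-sided. The median log2 difference of the 9 genes, PI minus CL, was -0.07 in WT and -0.02 in KO, against 0.01 and -0.00 over all genes. At an unadjusted p under 0.05, 4 of 9 genes passed in each genotype, against 24% of all genes in WT and 24.9% in KO.

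Among the neurofilament genes, Nefl, the light subunit on which filament assembly depends, was the one called, and it fell in both genotypes. In CL WT it ran from 8.93 through a median of 9.01 to 9.03 log2 CPM, and in PI WT from 8.47 through 8.57 to 8.72. Among KO animals it ran from 8.86 through 8.95 to 8.99 for CL, and from 8.59 through 8.63 to 8.68 for PI. The PI and CL values did not overlap in either genotype, and PI was lower in at least 4 of 6 animals of each genotype. In WT it fell by 0.41 ± 0.07 (SE) on the log2 scale and so fell by 24.9% (adjusted p = 0.00277). In KO it fell by 0.31 ± 0.06 and so fell by 19.2% (adjusted p = 0.00418). Nefl stayed called when any 1 of the 12 libraries was left out, in WT and in KO.

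Nefm, the medium subunit, had a difference of similar size that did not pass the test. It ran from 7.16 to 7.34 log2 CPM in CL WT and from 6.68 to 7.22 in PI WT, with 7.27 to 7.43 for CL KO and 6.74 to 7.24 for PI KO. The recoverable values were spread over 0.54 log2 in PI WT against 0.17 in CL WT, and over 0.50 in PI KO against 0.17 in CL KO. PI and CL overlapped in WT and did not in KO. The difference, PI minus CL, was -0.31 ± 0.13 (SE) in WT (adjusted p = 0.149) and -0.33 ± 0.13 in KO (adjusted p = 0.122). PI was lower in at least 4 of 6 animals of each genotype. With the animal as a replicate block the adjusted p was 0.00181 in WT and 0.00296 in KO. That fit called 2304 genes in WT (15.9%) and 2176 in KO (15.2%), and it leans on the spread shared over all genes, with 51.2 and 33.9 degrees of freedom borrowed against 3 of the gene's own. Where each gene kept its own spread in the block, none of the 9 genes and 2 and 1 genes of the whole tables were called. Without PI WT replicate 1, Nefm was called in WT without the block too (adjusted p = 0.0458).

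Nefh and Ina did not pass the test in either genotype. Nefh, the heavy subunit, ran from 6.06 to 6.23 log2 CPM in CL WT and from 6.09 to 6.33 in PI WT, a difference of 0.07 ± 0.08 (SE, adjusted p = 0.673). In KO its difference was 0.10 ± 0.09 (adjusted p = 0.580). For Ina, a subunit that appears early in neuronal development, the difference was 0.10 ± 0.07 in WT (adjusted p = 0.444) and -0.02 ± 0.06 in KO (adjusted p = 0.881). The 95% confidence intervals of these PI minus CL differences reached from -0.10 to 0.24 for Nefh and -0.05 to 0.25 for Ina in WT, and from -0.11 to 0.30 and -0.16 to 0.12 in KO, so falls of the size seen for Nefl in the same genotype lay outside them.

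The make-up of the 4 filament transcripts was set side by side for PI and CL libraries. Of their summed CPM per kilobase, Nefl made up a median of 61.9% in CL WT and 56.1% in PI WT, and 60.6% in CL KO and 56.8% in PI KO. The share of Nefh was 7.35% in CL WT and 9.11% in PI WT, and 7.38% and 8.95% in KO, with no overlap of the libraries between PI and CL. The share of Ina was 19.6% and 24.6% in WT and 20.6% and 23.4% in KO. For Nefl and Ina the libraries of PI and CL did not overlap in WT and did in KO, where Nefl ran from 58.1% in CL and up to 58.2% in PI, and Ina up to 22.3% in CL and from 21.9% in PI. Nefm took between 9.12% and 13.2% in the libraries of all 4 groups, and its ranges overlapped. The shares of a library are parts of the same sum, so a lower level of Nefl alone raises the shares of the others. The levels of Nefh and Ina were not called in either genotype. These shares were not tested, and they use the pulled-in end values.

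**Figure D2:**
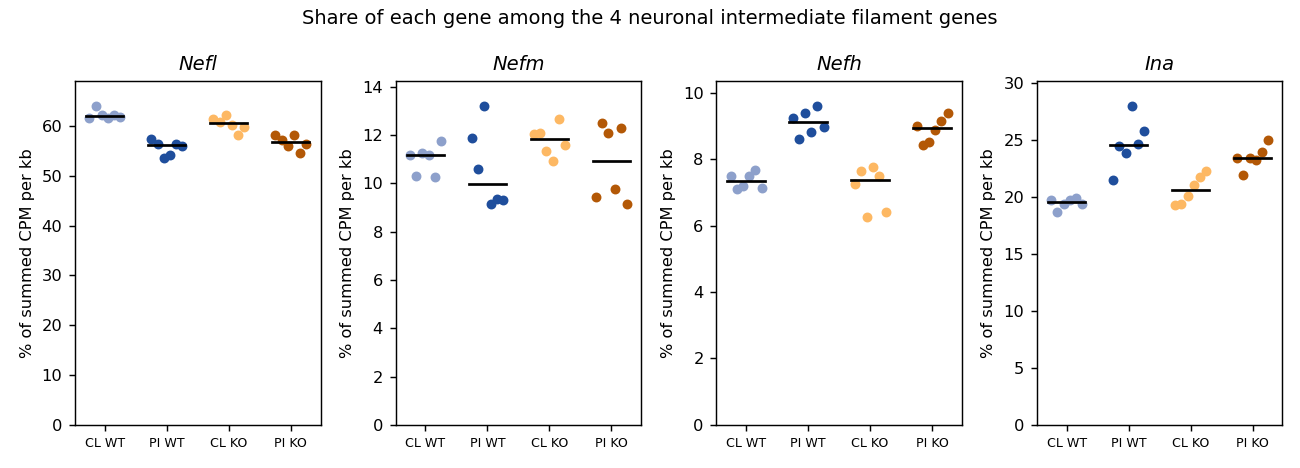
Share of each neuronal intermediate filament gene in the sum of the 4 genes' CPM per kilobase of exon (vertical axis, percent, from 0), 1 point per library in groups of 6, with the group median as a bar. Nefl has a median of 61.9% in CL WT and 56.1% in PI WT, while the medians of Nefh and Ina are higher in PI than in CL. The shares are parts of the same sum, so a lower level of Nefl alone raises the others.

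Nefl and Nefm lie next to each other on chromosome 14 on opposite strands. In GENCODE M21 (GRCm38), Nefl spans 68083863 to 68089095 on the plus strand and Nefm 68082590 to 68124846 on the minus strand, and a long transcript of Nefm runs through Nefl. They share 1108 exonic bases, 32.8% of the exonic bases of Nefl and 19.2% of those of Nefm, and the miR-7 match printed above lies within them. How reads in such bases were counted is not given in the sources used here, so the split between Nefl and Nefm is uncertain. Uchl1 likewise shares 295 exonic bases (18.1%) with an antisense gene, Uchl1os, and Ina shares 456 (14.1%) with Nt5c2 on the other strand.

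Of the microtubule protein genes, Mapt was called in both genotypes and Map2 and Stmn2 in neither. Mapt, which encodes tau, ran from 7.62 through a median of 7.65 to 7.65 log2 CPM in CL WT and from 7.36 through 7.40 to 7.51 in PI WT. In KO it ran from 7.58 through 7.69 to 7.70 in CL and from 7.24 through 7.28 to 7.41 in PI. The groups did not overlap, and PI was lower in at least 4 of 6 animals of each genotype. In WT it fell by 0.22 ± 0.05 (SE) on the log2 scale and so fell by 14.3% (adjusted p = 0.0197). In KO it fell by 0.36 ± 0.07 and so fell by 21.9% (adjusted p = 0.00458). In KO the call held with any 1 of the 12 libraries left out. In WT it was lost without PI WT replicate 6 (adjusted p = 0.0504) and without CL WT replicate 6 (adjusted p = 0.0547), and also with a prior variance that had no trend with expression (adjusted p = 0.0747).

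Map2, the dendritic microtubule protein, held close to 11 log2 CPM in all groups. It ran from 11.16 to 11.21 in CL WT and from 11.01 to 11.14 in PI WT, which did not overlap, and the difference was -0.09 ± 0.05 (SE, adjusted p = 0.371). In KO the values overlapped and the difference was -0.02 ± 0.06 (adjusted p = 0.848). For Stmn2 the difference was -0.07 ± 0.05 in WT (adjusted p = 0.480) and -0.01 ± 0.09 in KO (adjusted p = 0.959). PI was lower in at least 4 of 6 WT animals for Map2 and for Stmn2, as for the called Nefl and Mapt. In KO it was lower in at least 3 of 6 animals for Map2 and 2 for Stmn2, and higher in at least 1 and 4. The 95% confidence intervals of PI minus CL reached down to -0.20 for Map2 and -0.18 for Stmn2 in WT, and to -0.14 and -0.20 in KO.

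Gap43, the growth cone gene, was not called. It ran from 5.53 to 5.66 log2 CPM in CL WT and from 5.45 to 5.57 in PI WT, with overlap, a difference of -0.06 ± 0.07 (SE, adjusted p = 0.645). In KO it ran from 5.65 to 5.79 in CL samples and from 5.45 to 5.60 in PI samples, with no overlap, a difference of -0.18 ± 0.07 (adjusted p = 0.142), and PI was lower in at least 4 of 6 animals. Its upper 95% confidence limits for PI minus CL were 0.08 in WT and -0.02 in KO.

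Uchl1, whose protein is one of the most abundant in neurons, was the one gene of the 9 called higher. It ran from 7.33 through a median of 7.44 to 7.46 log2 CPM in CL WT and from 7.55 through 7.68 to 7.80 in PI WT, with no overlap and PI higher in at least 4 of 6 animals. The rise was 0.26 ± 0.07 (SE, 19.8%; adjusted p = 0.0371). This call was lost with 10 of the 12 libraries left out in turn, all but PI WT replicates 1 and 3, with adjusted p up to 0.0921, and with the prior variance that had no trend (adjusted p = 0.121). In KO, Uchl1 ran from 7.35 to 7.60 in CL and from 7.56 to 7.86 in PI, and the difference of 0.15 ± 0.10 did not pass (adjusted p = 0.390).

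Counting all 9 genes, the recoverable PI and CL values did not overlap for 4 in WT (Nefl, Map2, Mapt and Uchl1), against 26.3% of all genes, and for 4 in KO (Nefl, Nefm, Mapt and Gap43), against 26.8%.

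**Figure D3:**
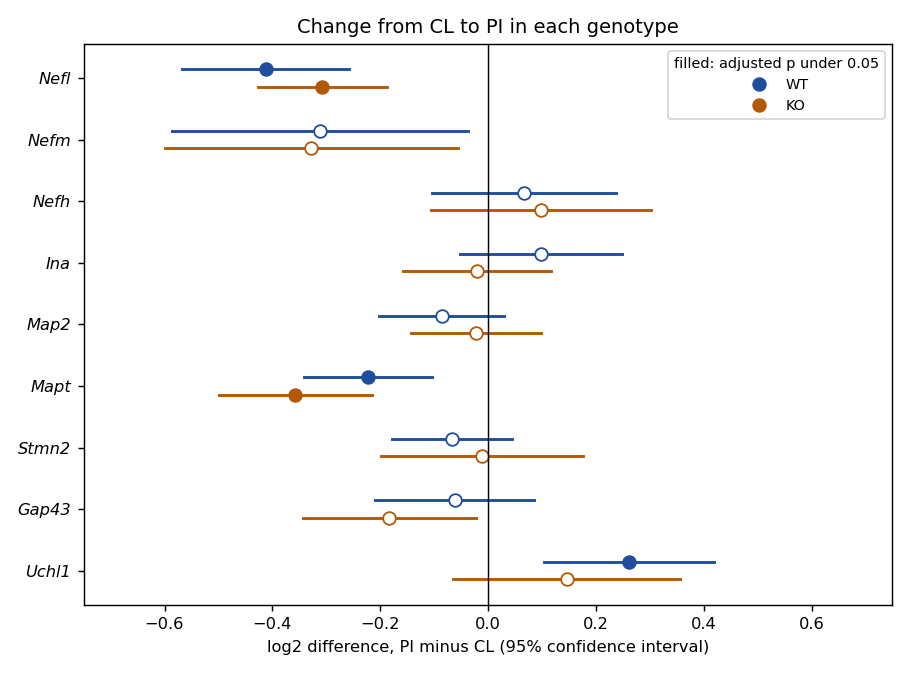
Difference between PI and CL for each gene (horizontal axis, log2, PI minus CL) in WT (blue) and KO (orange), with points at the estimate, lines for the 95% confidence interval and filled points for an adjusted p under 0.05. Nefl and Mapt are filled in both genotypes and Uchl1 in WT, and the intervals of WT and KO overlap for every gene.

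The comparison of KO with WT asks whether loss of ciRS-7 changed these genes. None of the 9 was called in PI cortex, where 0.0208% of 14452 genes were called, or in CL cortex, where 0.0279% of 14323 were called. None had an unadjusted p under 0.05 by the same limma-moderated test, against 5.78% and 5.75% of all genes, and KO and WT values overlapped for all 9 in both, against 8.97% and 8.67% of genes without overlap. In PI the KO minus WT differences reached from -0.11 ± 0.07 (SE) for Mapt (adjusted p = 0.873) to 0.08 ± 0.17 for Nefm. In CL they reached from -0.05 ± 0.05 for Map2 to 0.12 ± 0.07 for Gap43 (adjusted p = 0.891).

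How large a genotype difference the data leave room for can be read from the 95% confidence intervals of KO minus WT. For Nefl the interval was -0.10 to 0.22 in PI and -0.16 to 0.06 in CL. For Mapt it was -0.25 to 0.04 in PI and -0.08 to 0.14 in CL. Nefm, the gene with the miR-7 match, had -0.29 to 0.44 in PI and -0.06 to 0.24 in CL, the widest interval of the 9 genes in PI. With limma on the deposited values, whose spread had been narrowed, Mapt was called in PI (adjusted p = 0.0409) and Gap43 in CL (adjusted p = 0.0309). That setting called 2388 of 14452 genes in PI and 2311 of 14323 genes in CL, so these 2 calls do not stand out.

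**Figure D4:**
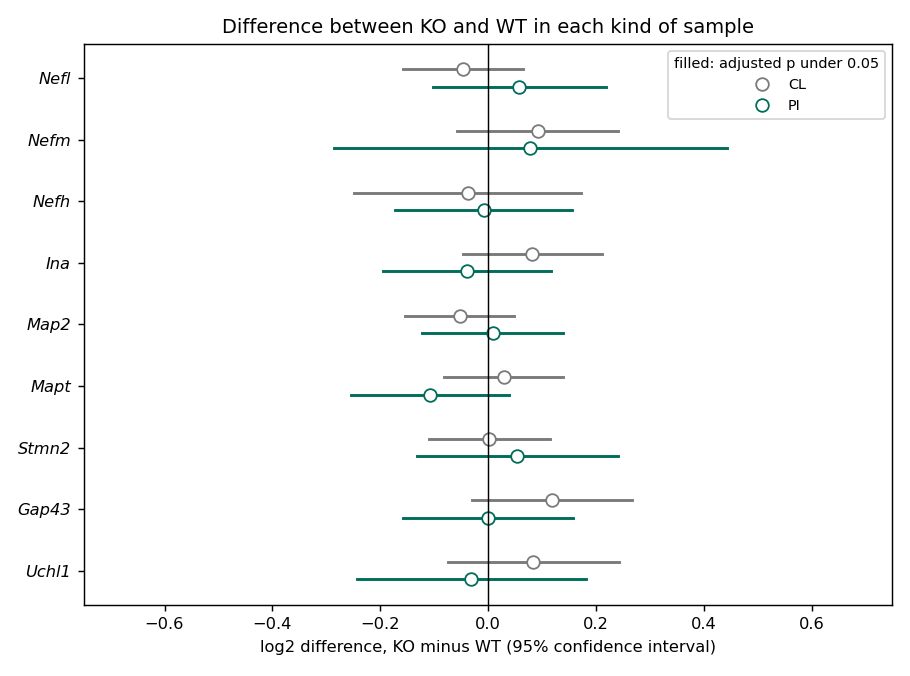
Difference between KO and WT for each gene (horizontal axis, log2, KO minus WT) in CL (grey) and PI (green) cortex, with points at the estimate and lines for the 95% confidence interval. No point is filled, and the interval of every gene includes 0 in both.

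The response itself, PI minus CL, was compared between genotypes as KO response minus WT response. None of the 9 genes was called, nor any of 14211 genes (0%), by the limma-moderated test. At an unadjusted p under 0.05 there were 0 of the 9 genes and 647 of all genes (4.55%), and limma on the deposited values called 1940 genes, among them Mapt (adjusted p = 0.0315). The differences reached from -0.13 ± 0.08 (SE) for Mapt, with a 95% confidence interval of -0.31 to 0.04, to 0.11 ± 0.09 for Nefl, with an interval of -0.09 to 0.30. For Nefm the responses of -0.33 in KO and -0.31 in WT differed by -0.02 ± 0.20. For Uchl1 the difference between responses was -0.12 ± 0.13, so its call in WT and not in KO was not a difference between the genotypes that passed a test.

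Genes with the most similar profile were sought over the 24 libraries of the PI and CL tables, among 5248 others with a mean of at least 5 log2 CPM, by the root mean square difference after centring. For Nefl these were Ndrg3 (0.05 log2), Kbtbd11 and Dusp3, and for Mapt they were Rab6b (0.04 log2), Ank3 and Atp2a2. For Uchl1 they were Syn2 (0.07 log2), Atp6v1b2 and Ensa, and for Nefm they included Fndc5 (0.12 log2) and Ptprm. The median gene stood 0.20 log2 from Nefl and 0.17 from Mapt. Map2 was nearest to Taok1, Akap11 and Ckap5, Gap43 to Gnao1, Vkorc1l1 and Tnrc6b, and Stmn2 to Zfp322a, Neo1 and Map2k1. Nefh was nearest to Dlst, Ndufv2 and Tmtc1, and Ina to Katnal1, Pcbp2 and Rasgrp1. Some of these genes varied little themselves. Ina varied by 0.08 log2 (root mean square) and stood 0.05 from Katnal1. Stmn2 varied by 0.08 and stood 0.05 from Zfp322a, and Nefh varied by 0.11 and stood 0.06 from Dlst. For such genes nearness can come from small variation alone.

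Related genes were followed in 9 lists, whose counts of calls stand against 10.8% of all genes called in WT and 10.1% in KO. Of 7 other intermediate filament genes listed, 3 rose in WT and 4 in KO, and none fell. Gfap, the filament of reactive astrocytes, rose by 1.88 ± 0.11 (SE) log2 in WT (adjusted p = 1.66e-06) and 2.19 ± 0.16 in KO (adjusted p = 7.31e-06), and Nes, of progenitors and reactive astrocytes, rose by 2.10 ± 0.24 in WT (adjusted p = 0.000197).

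Of 13 tubulin genes, 3 rose and 4 fell in WT, and 3 rose and 2 fell in KO. Of the risers, Tubb6 and Tuba1c were not listed in the table of the CL groups, and were listed only in tables that hold PI libraries, where they were high, so their calls are no independent support. Among the 11 tubulin genes listed there, 1 rose in each genotype. The fallers were led by Tuba4a, an alpha-tubulin of mature neurons, at -0.47 ± 0.07 (SE) in WT (adjusted p = 0.00156) and -0.44 ± 0.08 in KO (adjusted p = 0.00372). Tubb2b rose by 1.14 ± 0.15 in KO (adjusted p = 0.000463). Tubb6 ran from 2.06 to 6.23 CPM in PI WT and from 0.343 to 0.577 CPM in CL WT, where the limit of 3 reads reached 0.514 CPM. In CL KO it ran from 0.314 to 0.687 CPM, under the limit of 3 reads of the shallowest CL KO library. The other CL KO libraries had lower limits. The mean of PI KO, 4.90 CPM, was 6.12-fold the limit of that shallowest library.

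Of 24 microtubule-associated protein and stathmin genes, 1 rose and 3 fell in WT and 4 fell in KO. That was 16.7% called in each genotype, against 10.8% and 10.1% of all genes. Stmn4, a neuronal stathmin, fell by 0.36 ± 0.05 (SE) in WT (adjusted p = 0.00109), Stmn1 fell by 0.47 ± 0.07 in KO (adjusted p = 0.00123), and Dpysl3, a growth cone collapsin response mediator, rose by 0.36 ± 0.08 in WT (adjusted p = 0.0149). Of 13 genes of the membrane skeleton and axon initial segment, 6 fell in each genotype and none rose, with medians of -0.19 and -0.22. Among them were Cntn1, an axonal adhesion molecule, at -0.31 ± 0.06 (SE) in WT (adjusted p = 0.00354), and Ank3, which encodes ankyrin-G, at -0.32 ± 0.05 in KO (adjusted p = 0.00173). With 1 library left out the count of fallers in this list lay between 4 and 7 in WT and between 3 and 7 in KO.

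Of the 25 axon injury and regeneration genes chosen, 17 were listed in the PI and CL tables. Of the other 8, Atf3, Ecel1, Tnfrsf12a and Rac2 were listed in the table of the PI groups alone, and Sprr1a, Gal, Arg1 and Plaur were in none of the tables used here. In WT 5 rose and 2 fell, and in KO 6 rose and 1 fell. Stat3, a transcription factor of cytokine signalling, rose by 1.15 ± 0.09 (SE) in WT (adjusted p = 1.69e-05) and 1.18 ± 0.10 in KO (adjusted p = 1.79e-05). Hspb1, a small heat shock protein, ran from 4.36 to 6.17 CPM in PI WT against 0.577 to 1.11 in CL WT, and from 4.08 to 10.6 CPM in PI KO against 0.892 to 1.75 in CL KO. It was not listed in the table of the CL groups either, and among the 16 genes that were, 4 rose in WT and 5 in KO. Flrt3, a membrane protein of neurons, fell by 0.32 ± 0.07 in WT (adjusted p = 0.0133), and Marcks, an actin-binding substrate of protein kinase C, fell by 0.28 ± 0.06 in KO (adjusted p = 0.0133). Stat3 and Hspb1 are also expressed by glia and vascular cells.

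Of the listed axon degeneration, transport and tau kinase genes, 21.4%, 15.8% and 13.3% were called in WT and 14.3%, 5.26% and 20% in KO, against 10.8% and 10.1% of all genes. Of 14 axon degeneration genes, 1 rose and 2 fell in WT and 2 fell in KO, with Map3k13, a stress kinase of injured axons, at -0.29 ± 0.07 (SE) in WT (adjusted p = 0.0144) and -0.35 ± 0.10 in KO (adjusted p = 0.0460). Cast, the calpain inhibitor, was at 0.36 ± 0.10 in WT (adjusted p = 0.0299), and Mapk10 at -0.24 ± 0.06 in KO (adjusted p = 0.0209). Of 19 transport motor genes, 1 rose and 2 fell in WT and 1 fell in KO. The kinesin light chain gene Klc2 fell by 0.33 ± 0.06 in WT (adjusted p = 0.00257) and 0.31 ± 0.06 in KO (adjusted p = 0.00660), while Klc1 was at 0.21 ± 0.05 in WT (adjusted p = 0.0264). Of 15 kinase and phosphatase genes acting on tau or neurofilaments, 2 fell in WT and 3 in KO. Cdk5r2, an activator of Cdk5, was at -0.54 ± 0.09 in WT (adjusted p = 0.00244) and -0.46 ± 0.13 in KO (adjusted p = 0.0365), and Ppp3ca, a catalytic subunit of calcineurin, fell by 0.36 ± 0.08 in KO (adjusted p = 0.0159).

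Of 12 ubiquitin hydrolase and soluble neuronal marker genes, 1 rose and 3 fell in each genotype. Nrgn, which encodes a calmodulin-binding postsynaptic protein, fell by 0.38 ± 0.08 (SE) in WT (adjusted p = 0.0112) and 0.37 ± 0.06 in KO (adjusted p = 0.00138), and Vsnl1, a neuronal calcium sensor, fell by 0.34 ± 0.06 in WT (adjusted p = 0.00181). The list results named here with a p stayed called with any 1 library left out, except Cast and Klc1 in WT (8 and 5 of 12 libraries, adjusted p up to 0.0783 and 0.0697), and Map3k13, Cdk5r2 and Mapk10 in KO (9, 5 and 3 of 12, adjusted p up to 0.109, 0.0962 and 0.0609). None of the genes in the 9 lists was called between KO and WT or in the difference of responses.

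**Figure D5:**
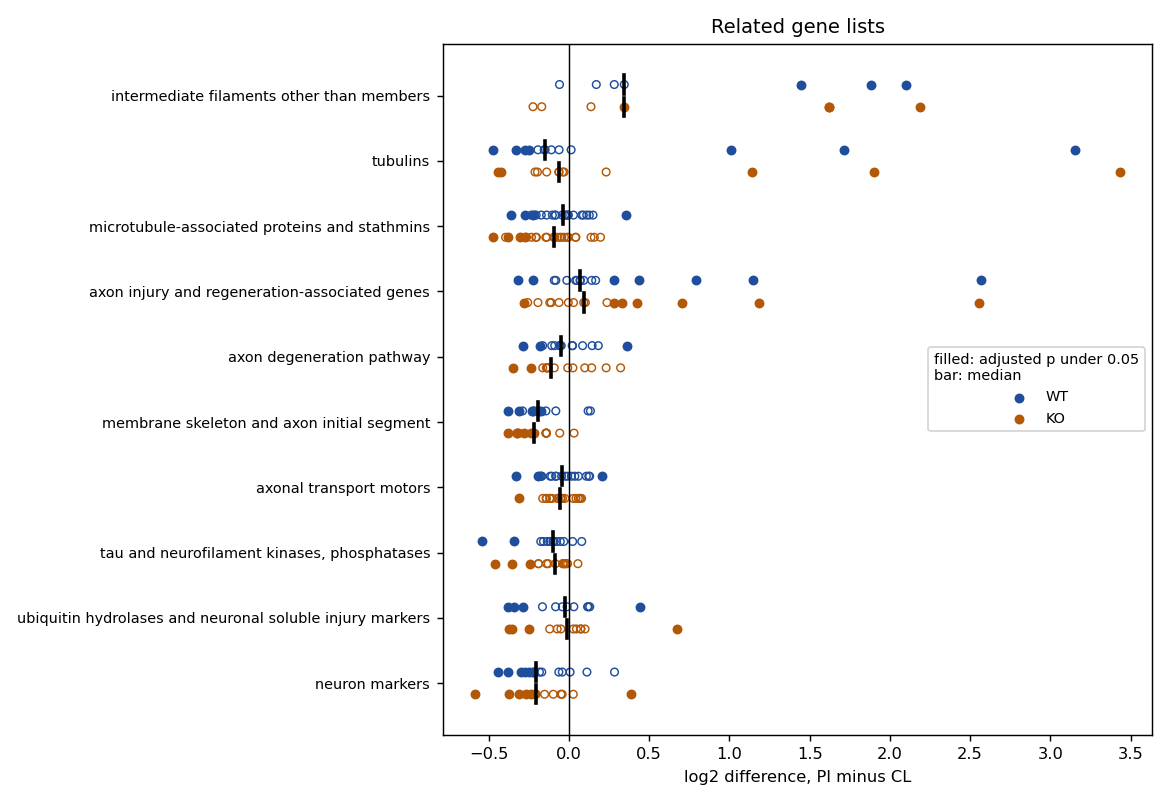
Difference between PI and CL (horizontal axis, log2, PI minus CL) for each gene of the 9 related lists and of the neuron markers, WT in blue above and KO in orange below, filled for an adjusted p under 0.05, with the list median as a black bar. Membrane skeleton genes and neuron markers lie mostly left of 0, with medians of -0.19 and -0.20 in WT, while some glial filament genes, tubulins and injury genes lie beyond 1. Among the latter, Tubb6, Tuba1c and Hspb1 were listed only in tables that hold PI libraries, where they were high, so their calls are no independent support.

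Markers of cell types were also compared between PI and CL. Of 14 neuron markers, 7 fell and none rose in WT, and 5 fell and 1 rose in KO, with medians of -0.20 and -0.21. Their summed level ran from 8369 to 9085 CPM in CL WT against 7056 to 7986 in PI WT, and among KO animals from 8676 to 8867 CPM in CL against 6792 to 7768 in PI. With 1 library left out, the fallers numbered 3 to 8 in WT and 3 to 7 in KO. A list of 10 markers of deep-layer and Pvalb neurons, types rich in neurofilament, had all 10 differences below 0 in both genotypes, with medians of -0.26 and -0.30. Of them 2 were called in WT (20%) and 1 in KO (10%), against 10.8% and 10.1% of all genes. Over all genes, 47.7% of differences in WT and 50.1% in KO were below 0, with medians of 0.01 and -0.00. The part of neuron content in the falls of Nefl and Mapt was not tested.

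Of 10 microglia markers, 4 rose and 1 fell in each genotype, and their summed level was 183 to 199 CPM in CL WT and 202 to 230 in PI WT, and among KO animals 195 to 213 in CL and 216 to 269 in PI. Astrocyte markers other than Gfap summed to 7573 to 8067 CPM in CL WT and 6650 to 7125 in PI WT, and to 7631 to 8260 and 6336 to 7184 in KO, with 1 of 10 rising in each genotype and 3 and 1 falling. Oligodendrocyte markers summed to 2281 to 2552 CPM in CL WT and 1607 to 2460 in PI WT, and to 1747 to 2598 and 1788 to 2056 in KO, with 2 and 0 of 10 falling. Of 10 endothelial markers 8 had differences above 0 in each genotype, with medians of 0.35 and 0.14. Differences lay below 0 for 47.7% of all genes in WT and 50.1% in KO. No endothelial marker was called in WT, and Slco1a4 and Abcb1a, both transporter genes, fell in KO. The summed levels of the 10 were 116 to 170 and 109 to 176 CPM in CL WT and PI WT and 132 to 158 and 129 to 144 CPM in KO. Of 12 neutrophil and monocyte markers 1 was listed in these tables, at 1.20 to 2.44 CPM over all groups. Of 10 striatal markers 8 were listed, without Drd2 and Adora2a, and they summed to 238 to 320 CPM in CL WT against 188 to 233 in PI WT and to 223 to 260 against 195 to 227 in KO, with 1 higher and 2 lower in WT and 1 lower in KO. The shares called in WT and KO were 50% and 50% for microglia, 40% and 20% for astrocyte and 20% and 0% for oligodendrocyte markers. They were 0% and 20% for endothelial and 37.5% and 12.5% for striatal markers, against 10.8% and 10.1% of all genes. The part of these cell types in the results was not tested.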

How the data were processed

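The authors deposited log2 CPM values (reads of a gene relative to the reads of its library, on a log2 scale) in 4 tables of 12 libraries, each holding 2 groups, per the file headers. The submitters' processing notes name the build mm10. The aligner, the counting method and its use of strand, the annotation and the scaling are not given in the sources used here. Per the labels' protocols, RNA came from TRIzol extraction with DNase treatment, ribosomal RNA was removed (RiboCop), and libraries were made with a CORALL kit. Each table was scaled on its own (a CL WT library differed by 0.0319 to 0.0373 log2 between its 2 tables), so tests were made within a table. The labels name numbered animals, which the design text calls biological replicates.

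In 100% of genes of every group the 2 lowest of 6 deposited values were equal and the 2 highest were equal, a Winsorizing to the group's quartiles that no label records. The value next to the outermost was solved from the tied value (0.75 of it plus 0.25 of the next one inward), and the outermost cannot be. The test compared means of the 4 inner values with the Winsorized sum of squares as error (6 degrees of freedom for 2 groups, 12 for 4), moderated with a trend in limma 3.58.1 (R 4.3.3), two-sided, with Benjamini-Hochberg adjustment over all genes of a table. Calls were made at an adjusted p under 0.05. Depth was read from low values, which were whole multiples of 1 read for 82.0% to 91.2% of values per library (within 0.05 read). Precision is given by SEs over libraries.

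The 9 genes and all lists were chosen with earlier results of these data known. From each list were named, in each comparison of PI with CL, the called genes with the smallest p and with the largest change in each direction. For the most similar profiles the 3 nearest genes were named. Some genes that these rules pick are not reported here. CL and PI libraries of the same number are from 1 animal by their titles, so the number pairs them. Deviations of such pairs from their group means had correlations across genes of 0.0332 to 0.416 in WT and -0.119 to 0.305 in KO, over 0.1 in 4 and 3 of 6 pairs. Alternatives were limma on the deposited values, no trend, a filter at a mean log2 CPM of 1, centring on the median gene, each library left out, and the animal as a block. Gene positions and exon lengths come from GENCODE M21 on GRCm38, the same assembly as mm10, which may not be the authors' annotation. The miRNA sequences come from RefSeq.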

Additional observations from a re-analysis of the deposited data

How the results depend on the processing

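Over the 9 genes and 5 comparisons, a filter at a mean log2 CPM of 1 and centring on the median gene changed no call of the 9 genes, and neither did taking the difference of responses from the tables of KO and WT. With limma on the deposited values, whose narrowed spread makes p too small, 6459 genes and 6 of the 9 passed in WT, 6666 and 5 in KO, 2388 and 1 between genotypes in PI, 2311 and 1 in CL, and 1940 and 1 in the difference of responses. With a prior variance without a trend, 1015 genes and 1 of the 9 (Nefl) were called in WT, and 739 genes in KO. With the animal as a replicate block, 2176 genes were called in KO, and of the 9 genes only Nefm changed its call. With the block and limma on the deposited values the counts were 6614 and 7 in WT and 6759 and 5 in KO. With the block and each gene's own spread, chosen after the data were seen, 2 genes in WT, 1 in KO and 0 of the 9 in either were called. The number as a block between genotypes, where it joins different animals, gave 6 genes in PI and 87 in CL, 0 of the 9 in either, and 1 gene for the difference of responses with the animal as the block. Same-numbered KO and WT libraries had correlations of deviations from -0.233 to 0.221 in PI and -0.234 to 0.259 in CL, best with their own number in 1 and 2 of 6.

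With 1 library left out, 1119 to 1471 genes and 1 to 4 of the 9 passed in WT, 901 (without CL KO replicate 5; 930 without PI KO replicate 2) to 1600 and 2 in KO, 3 to 4 genes between genotypes in PI, 4 to 8 in CL, and 0 for the difference of responses. No called gene of the 9 changed sign. Signs turned only for values near 0 that were not called: PI minus CL in KO for Ina (-0.0420 to 0.00830), Map2 (-0.0466 to 0.00385) and Stmn2 (-0.0496 to 0.0591), KO minus WT in PI for Nefm (-0.0154 to 0.171), Nefh (-0.0490 to 0.0293), Map2 (-0.0197 to 0.0346), Gap43 (-0.0271 to 0.0272) and Uchl1 (-0.105 to 0.00968), in CL for Nefh (-0.0830 to 0.0375) and Stmn2 (-0.0105 to 0.0336), and the difference of responses for Nefm (-0.108 to 0.0749) and Nefh (-0.0440 to 0.0755). The causes of these changes were not tested. The 6 libraries of a group limit what can be detected: Nefm in PI, with an SE of 0.17 between genotypes, is the least precise. The counting error alone (median SD per group, 0.0113 to 0.0832 log2 over the 9 genes) reached the spread between libraries in 3 of 36 combinations of gene and group: Gap43 in PI WT, Mapt in CL WT and Nefh in PI KO.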
